A study of Homo sapiens with 4 samples.

Results

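The 10 genes followed here are used as markers of epithelial or mesenchymal cell state, and their mRNA was measured in pancreatic cancer cells: CDH1, CDH2, EPCAM, VIM, ZEB1, SNAI2, KRT7, KRT8, KRT18 and KRT19. They were matched by symbol, and all 10 were found among the 58233 genes of the count table. The libraries came from MIA PaCa-2 and PANC-1, established human cell lines from pancreatic cancers. Each line was treated with cannabichromene (CBC), a cannabinoid of hemp, or with PBS, and RNA was collected at 24 h. CBC was used at 35 μM in MIA PaCa-2 and at 30 μM in PANC-1, so the doses differed between the lines. The sample labels name the control PBS, while the methods of the study speak of a vehicle control and of CBC dissolved in acetonitrile. Each of the 4 groups had 1 library, so differences within a line could not be set against replicates. The libraries are whole cultures, in which fewer cells of a kind and less RNA per cell cannot be told apart.

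Epithelial cells are held together by E-cadherin, the product of CDH1, and by EPCAM, a surface adhesion molecule, and their cytoskeleton is built from simple keratins. Keratins assemble as obligate pairs of a type II chain (KRT7, KRT8) and a type I chain (KRT18, KRT19), and KRT7 and KRT19 are typical of ductal epithelium. In the epithelial to mesenchymal transition, cells replace E-cadherin with N-cadherin (CDH2) and gain vimentin (VIM), the intermediate filament protein of mesenchymal cells. ZEB1 and SNAI2 (Slug) are zinc finger transcription factors that repress CDH1 and other epithelial genes through E-box sequences in their promoters.

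The promoter sequences of the mesenchymal members CDH2, VIM and ZEB1 are shown because these genes had very different levels in the same libraries. Of the 10 genes, 4 had an entry in the RefSeq promoter table (GRCh38.p14), and the window shown for each is the 250 bases before the start of its canonical transcript. The entry for KRT8 starts 21393 bases from that start and is not shown. The windows are chr18:28177131-28177380 on the minus strand for CDH2, chr10:17227991-17228240 on the plus strand for VIM and chr10:31318966-31319215 on the plus strand for ZEB1. Capitals mark the E-box CAGGTG, which ZEB1 and SNAI2 are known to bind, and the GC box GGGCGG, each on either strand (CACCTG and CCGCCC are the reverse complements), and the letters TATAAA were also searched.
CDH2: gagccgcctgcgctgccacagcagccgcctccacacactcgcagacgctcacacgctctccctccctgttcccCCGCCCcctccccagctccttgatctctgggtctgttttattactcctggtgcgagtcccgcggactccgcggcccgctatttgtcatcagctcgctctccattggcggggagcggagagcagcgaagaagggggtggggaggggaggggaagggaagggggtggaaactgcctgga
VIM: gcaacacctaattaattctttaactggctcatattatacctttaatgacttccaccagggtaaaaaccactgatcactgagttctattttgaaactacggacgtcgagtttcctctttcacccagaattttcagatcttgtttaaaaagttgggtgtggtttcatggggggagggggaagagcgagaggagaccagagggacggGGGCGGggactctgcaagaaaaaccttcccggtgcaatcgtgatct
ZEB1: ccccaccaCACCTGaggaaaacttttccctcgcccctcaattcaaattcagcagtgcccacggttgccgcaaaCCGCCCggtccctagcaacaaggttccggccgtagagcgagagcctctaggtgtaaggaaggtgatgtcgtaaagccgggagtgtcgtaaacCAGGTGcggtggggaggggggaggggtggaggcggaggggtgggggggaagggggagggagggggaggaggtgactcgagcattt
The window of ZEB1 held 2 matches to the E-box, beginning 242 and 85 bases before the start, and another lay 34 bases after it. No CAGGTG was found in the windows of VIM and CDH2. Of 35116 promoter windows in the table, each extended to 50 bases after the start, 20.59% held CAGGTG on either strand, 44.95% held GGGCGG and 11.53% held TATAAA. All 3 windows shown held 1 match to GGGCGG and none to TATAAA. Such matches describe letters and not binding.

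CDH1 lies on chromosome 16 (68737292 to 68835537, plus strand), EPCAM on chromosome 2 (47345158 to 47387601, plus strand) and CDH2 on chromosome 18 (27932879 to 28177946, minus strand), all on GRCh38. VIM (17228241 to 17237593) and ZEB1 (31318495 to 31529814) both lie on the plus strand of chromosome 10, and SNAI2 lies on the minus strand of chromosome 8 (48917598 to 48921740). KRT7 (52232520 to 52252186, plus strand), KRT8 (52897187 to 52949954, minus strand) and KRT18 (52948871 to 52952906, plus strand) are neighbours on chromosome 12, while KRT19 lies on the minus strand of chromosome 17 (41523617 to 41528308). The exons of KRT8 and KRT18 share 525 bases on opposite strands. Whether counting used strand is not given in the sources used here, so reads from the shared bases cannot be assigned between these genes with certainty.

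The libraries held 21742775 to 27903667 counts, and the share of mitochondrially encoded genes was 5.81% and 3.86% in MIA PaCa-2 under PBS and CBC and 4.63% and 2.42% in PANC-1. A count of 0 allows up to 3 counts, which is 0.110 to 0.135 CPM (normalized counts per 1000000) in these libraries. Among markers of other cell types, PTPRC and CD3E of leukocytes and DCN and LUM of fibroblasts had 0 counts in all 4 libraries, and other genes of the same lists did not. The 6 leukocyte markers summed to 6.43 and 21.0 CPM in MIA PaCa-2 under PBS and CBC and to 2.29 and 0.842 CPM in PANC-1, and the rise in MIA PaCa-2 was in ITGAM (12 and 491 counts). CD14, another of them, had 123 and 18 counts in MIA PaCa-2 and 32 and 2 in PANC-1 (edgeR over both lines, log2 fold change -3.30, SE 0.62, adjusted p = 0.0303). The 6 fibroblast markers summed to 3.24 and 1.25 CPM in MIA PaCa-2 and to 136 and 47.2 CPM in PANC-1, where most of it was the collagen gene COL1A1 (134 and 46.4 CPM). The 5 endothelial markers summed to at most 2.20 CPM, the 5 acinar markers to at most 0.0440 CPM and the 5 endocrine markers to 11.6 to 23.1 CPM.

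The first question was how the lines differed before CBC. Both lines expressed VIM and simple keratins together, and they differed in the adhesion genes. CDH1, EPCAM and CDH2 had 0 counts in MIA PaCa-2 under PBS, whereas PANC-1 had 32, 264 and 725 counts of them. Both the epithelial and the mesenchymal cadherin were thus detected in PANC-1 alone among the PBS libraries. Read against the limit of 3 counts, PANC-1 had at least 236-fold more CDH2, at least 86.1-fold more EPCAM and at least 10.4-fold more CDH1. The CDH1 level in PANC-1 was itself low, at 1.41 CPM under PBS.

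**Figure D1:**
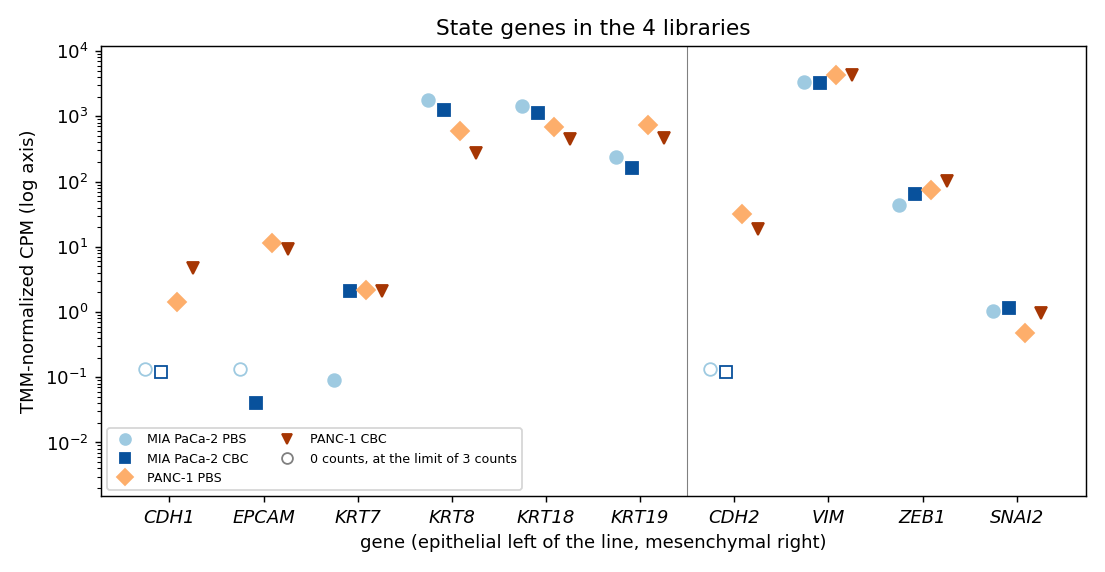
TMM-normalized CPM of the 10 genes (log axis) in the 4 libraries, 1 symbol per library, with open symbols placed at the limit of 3 counts where a gene had 0 counts. VIM lies between 3249 and 4356 CPM in every library, and CDH1 and CDH2 have counts in the PANC-1 libraries alone.

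Counts on a common scale were compared as log2 fold changes of trimmed mean of M-values (TMM) normalized counts with a prior count of 2, and genes beyond 1 or -1 were called past 2-fold. Genes were tested if 1 or both libraries compared held 1 CPM or more. Between the lines under PBS all 10 genes were tested and 7 were past 2-fold, 5 of them higher and 2 lower in PANC-1, against 41.9% of the 14805 genes tested (24% higher and 18% lower). With upper quartile scaling the direction of all genes shifted, to 2954 higher and 3396 lower from 3548 and 2659. CDH1, EPCAM, CDH2 and KRT7 had 0 to 2 counts in MIA PaCa-2 and passed the filter through PANC-1 only. With counts so low in MIA PaCa-2, passing the filter already put them past 2-fold. SNAI2 passed through MIA PaCa-2 only (1.03 CPM, against 0.484 CPM in PANC-1) and was within 2-fold. Of the 5 genes with at least 1 CPM in both lines, 3 were past 2-fold (KRT8, KRT18 and KRT19), against 30.1% of the 11922 genes that passed this filter.

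The keratins differed in opposite directions. KRT8 had 1801 CPM in MIA PaCa-2 and 604 CPM in PANC-1 under PBS (log2 fold change -1.57; 95% counting interval -1.60 to -1.55). Its type I partner KRT18 had 1435 CPM in MIA PaCa-2 and 681 CPM in PANC-1 (log2 fold change -1.07; -1.10 to -1.05). KRT19, the type I keratin of ductal cells, went the other way, with 240 CPM in MIA PaCa-2 and 744 CPM in PANC-1 (log2 fold change 1.63; 1.59 to 1.68). The intervals are exact binomial (Clopper-Pearson) and take in counting error alone. KRT7 had 2 counts in MIA PaCa-2 and 49 in PANC-1, a ratio of 24.0 with a counting interval of 6.29 to 203.

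VIM and both transcription factors were within 2-fold between the lines. VIM had 3378 CPM in MIA PaCa-2 and 4329 CPM in PANC-1 (log2 fold change 0.36; 0.34 to 0.37). ZEB1 had 43.1 CPM in MIA PaCa-2 and 74.4 CPM in PANC-1 (log2 fold change 0.79; 0.67 to 0.90). SNAI2 was close to the detection limit, with 23 counts in MIA PaCa-2 and 11 in PANC-1, and its log2 fold change of -0.98 had a counting interval of -2.28 to -0.0017. SNAI2 was the only member whose side of 2-fold under PBS turned on the scaling or the prior count, and with library totals, upper quartile scaling or a prior count of 0.5 there were 8 genes past 2-fold.

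**Figure D2:**
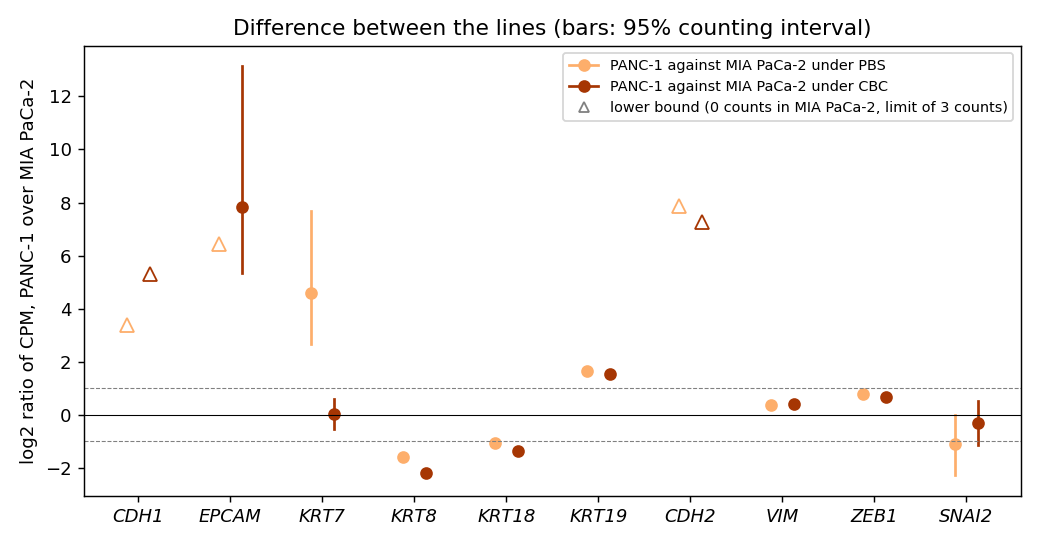
Log2 ratio of CPM in PANC-1 over MIA PaCa-2 for each gene, under PBS and under CBC, with 95% counting intervals as bars and dashed lines at 2-fold. Open triangles are lower bounds for genes with 0 counts in MIA PaCa-2. KRT8 and KRT18 lie below 0 and KRT19 above 0 under both treatments, and KRT7 lies near 0 under CBC.

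Levels of different genes were compared as TPM, counts divided by the length of the gene's exons and scaled to a sum of 1000000 in every library. In MIA PaCa-2 under PBS the order was VIM (2461 TPM), KRT18 (1763 TPM), KRT8 (987 TPM), KRT19 (388 TPM), ZEB1 (18.8 TPM), SNAI2 (1.19 TPM) and KRT7 (0.0848 TPM), with CDH1, CDH2 and EPCAM at 0. In PANC-1 under PBS the order was VIM (3159 TPM), KRT19 (1203 TPM), KRT18 (838 TPM), KRT8 (332 TPM), ZEB1 (32.5 TPM), EPCAM (18.04 TPM), CDH2 (14.03 TPM), KRT7 (2.04 TPM), CDH1 (0.875 TPM) and SNAI2 (0.557 TPM). The counting intervals of CDH1 (0.598 to 1.23 TPM) and SNAI2 (0.278 to 0.996 TPM) overlapped, and those of the other neighbours did not. ZEB1 was thus the more abundant of the 2 factors in both lines. With the length of the canonical transcript in place of all exons, EPCAM (17.1 TPM) and CDH2 (18.1 TPM) changed places in PANC-1, and KRT18 (2299 TPM) and KRT8 (2285 TPM) were close to each other in MIA PaCa-2.

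The lines were also compared over both treatments with edgeR's quasi-likelihood test, with treatment as a block and adjusted p-values (Benjamini-Hochberg) over 16381 genes. The spread in this test comes from a PBS and a CBC library of each line, which leaves 1 residual degree of freedom for each gene. This spread reflects how far line differences varied with treatment, and not replicate cultures. The fit also draws each gene's spread towards that of all genes, so an SE or p-value does not rest on the gene alone. The test called 7 of the 10 genes, 5 higher and 2 lower in PANC-1, against 46.7% of all genes (25.1% higher and 21.7% lower). CDH1, CDH2, EPCAM, KRT19 and ZEB1 were higher in PANC-1, and KRT8 and KRT18 were lower. CDH1, CDH2 and EPCAM had 0 or 1 counts in the MIA PaCa-2 libraries and entered the test through PANC-1 only. Their direction was thus fixed by the filter, and their calls add no support. With at least 1 CPM in all 4 libraries 5 of the genes were tested and 4 called, against 43.5% of 11580 genes. By edgeR, KRT19 was higher by a log2 fold change of 1.53 (SE 0.18, adjusted p = 0.000433). KRT8 and KRT18 had log2 fold changes of -1.94 (SE 0.21, edgeR adjusted p = 0.000262) and -1.28 (SE 0.17, edgeR adjusted p = 0.000879). ZEB1 was higher by 0.66 (SE 0.21, edgeR adjusted p = 0.0354), but its adjusted p was 0.053 with library totals, 0.0697 with upper quartile scaling, 0.0504 with protein-coding genes alone and 0.196 without the block. VIM (0.33, SE 0.14, edgeR adjusted p = 0.0875), KRT7 (1.52, SE 0.96, adjusted p = 0.230) and SNAI2 (-0.72, SE 0.60, adjusted p = 0.352) did not pass.

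The second question was how each line responded to CBC. In MIA PaCa-2 KRT7 was the only one of the 10 genes past 2-fold, and in PANC-1 CDH1 was higher and KRT8 lower. In both lines KRT8, KRT18 and KRT19 had lower CPM under CBC and ZEB1 had higher CPM, while the CPM of VIM under CBC was 0.962 and 1.01 times that under PBS in MIA PaCa-2 and PANC-1. The members past 2-fold were 1 of the 7 tested in MIA PaCa-2, where 20.5% of 14001 genes were past 2-fold (11.5% higher and 8.97% lower), and 2 of the 9 tested in PANC-1, where 14.7% of 14091 genes were (7.71% higher and 7.03% lower). These shares of a few genes are near the background of each line. KRT7 had 2 counts in MIA PaCa-2 under PBS and passed the filter through the CBC library only. Its call was thus fixed by the filter.

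**Figure D3:**
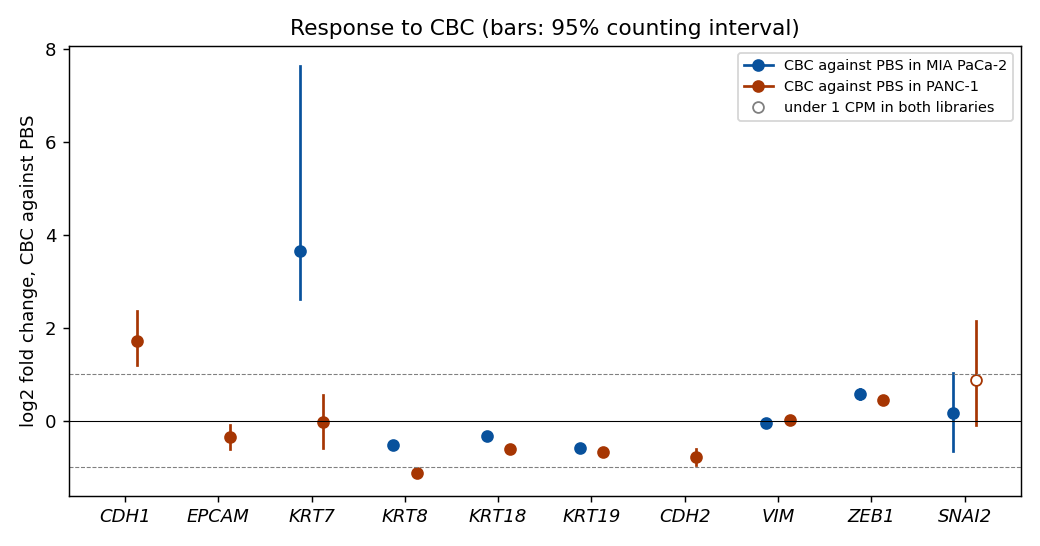
Log2 fold change of CBC against PBS in MIA PaCa-2 and in PANC-1, with 95% counting intervals as bars and dashed lines at 2-fold; genes with fewer than 5 counts in a line are left out and the open symbol marks a gene under 1 CPM in both libraries. KRT7 lies above 2-fold in MIA PaCa-2 alone, and CDH1 above and KRT8 below it in PANC-1.

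Among the adhesion genes, CDH1 had 32 counts (1.41 CPM) in PANC-1 under PBS and 131 counts (4.79 CPM) under CBC. The log2 fold change was 1.71 (counting interval 1.20 to 2.37). CDH2, the mesenchymal cadherin, had 725 counts (31.9 CPM) under PBS and 507 counts (18.6 CPM) under CBC in the same line, a log2 fold change of -0.78 (-0.95 to -0.62) that did not reach 2-fold. The share of CDH1 in the counts of both cadherins was 4.23% (exact 95% interval 2.91 to 5.92%) under PBS and 20.5% (17.5 to 23.9%) under CBC. CDH2 remained the more abundant cadherin in both PANC-1 libraries, also per kilobase of exon, where the share of CDH1 under CBC was 26.7%. EPCAM had 264 counts (11.6 CPM) and 250 counts (9.15 CPM) under PBS and CBC, a log2 fold change of -0.34 (-0.60 to -0.09).

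None of these adhesion genes was tested in MIA PaCa-2. CDH1 and CDH2 had 0 counts and EPCAM had 0 and 1 counts under PBS and CBC, so expression of the cadherins was not detectable at this depth under either treatment. EPCAM-DT, a divergent noncoding gene beside EPCAM, had 0 counts in both MIA PaCa-2 libraries and 8 and 49 counts in PANC-1 under PBS and CBC.

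KRT7 had 2 counts in MIA PaCa-2 under PBS and 52 under CBC, against 49 and 58 in PANC-1. The ratio of CPM in MIA PaCa-2 was 23.4 with a counting interval of 6.15 to 198, and in PANC-1 the log2 fold change was -0.02 (-0.60 to 0.56). The gap between the lines was 3.70 on the log2 scale under PBS and 0.01 under CBC, where the lines had 2.10 and 2.12 CPM. KRT7 passed the filter in MIA PaCa-2 only through its CBC library. With 2 counts under PBS, passing already put it past 2-fold and fixed its direction, so the call adds no support. The level of KRT7 under CBC was small beside those of the other keratins (2.18 TPM against 285 TPM for KRT19, the next).

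The abundant keratins had lower CPM under CBC in both lines. In MIA PaCa-2, KRT8 went from 1801 to 1251 CPM (log2 fold change -0.53; -0.55 to -0.50) and from 604 to 276 CPM in PANC-1 (-1.13; -1.17 to -1.09). In MIA PaCa-2, KRT18 went from 1435 to 1140 CPM (-0.33; -0.36 to -0.31) and from 681 to 444 CPM in PANC-1 (-0.62; -0.65 to -0.58). In MIA PaCa-2, KRT19 went from 240 to 161 CPM (-0.58; -0.64 to -0.52) and from 744 to 470 CPM in PANC-1 (-0.66; -0.70 to -0.63). Of these 6 differences, that of KRT8 in PANC-1 was past 2-fold. Because counting intervals at such depth are narrow and there is no replicate, they do not show how far cultures vary.

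KRT8 and KRT18 have many processed pseudogenes whose reads can be hard to separate from the parent gene. The 51 pseudogenes named for KRT8 had 484 and 826 counts in MIA PaCa-2 under PBS and CBC and 390 and 708 counts in PANC-1. Their counts were thus higher under CBC while those of KRT8 were lower, and they came to 1.21% to 9.39% of the KRT8 counts. With these counts added to KRT8, its log2 fold change in PANC-1 was -1.04 and stayed past 2-fold. The 67 pseudogenes named for KRT18 had 55 to 131 counts a library.

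KRT8 and KRT18 are partners in the same filament, and the counts of KRT8 for each KRT18 count were 1.25 (1.24 to 1.27) in MIA PaCa-2 under PBS, 1.10 (1.08 to 1.12) under CBC, 0.887 (0.867 to 0.908) in PANC-1 under PBS and 0.621 (0.603 to 0.639) under CBC. KRT8 was therefore lower relative to its partner under CBC in each line and lower in PANC-1 than in MIA PaCa-2. Per kilobase of the canonical transcripts the ratios were 0.994, 0.869, 0.703 and 0.492 in the same order of libraries.

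VIM counts made up a nearly constant part of each line's library while the keratins did not. The 4 keratins together took 0.356% of all counts in MIA PaCa-2 under PBS and 0.273% under CBC, and 0.190% and 0.117% in PANC-1. VIM took 0.345% and 0.348% of the counts in MIA PaCa-2 and 0.404% and 0.427% in PANC-1. In normalized CPM, VIM had a log2 fold change of -0.06 (-0.07 to -0.04) with CBC in MIA PaCa-2 and 0.0089 (-0.0033 to 0.021) in PANC-1. Relative to the summed TPM of the keratins, VIM stood at 0.784 and 1.01 in MIA PaCa-2 under PBS and CBC and at 1.33 and 2.18 in PANC-1.

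**Figure D4:**
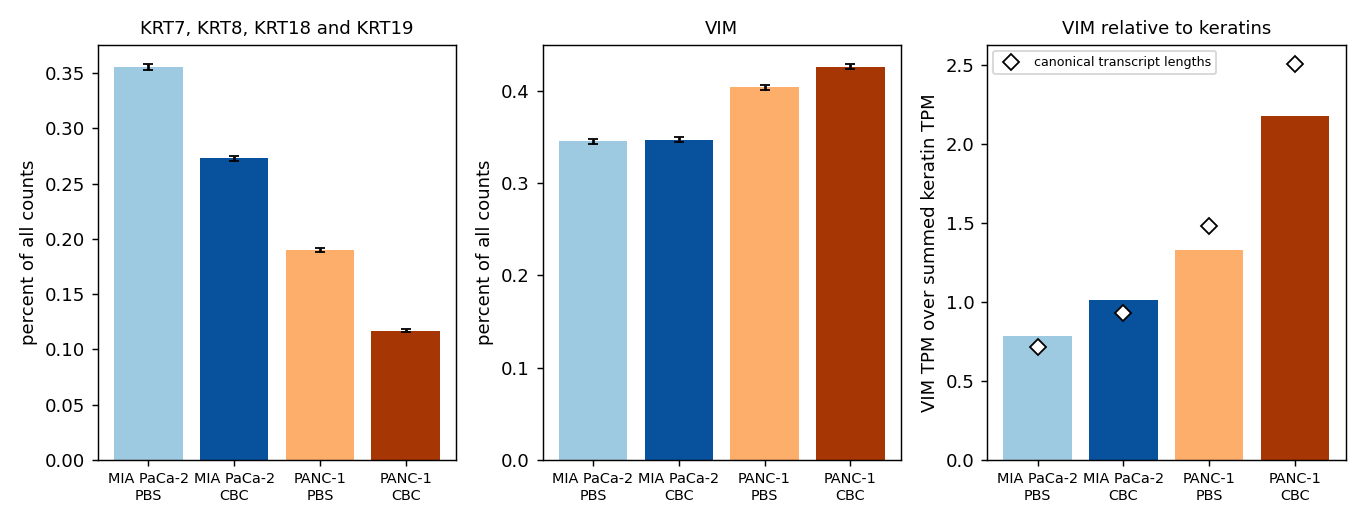
Percent of all counts taken by the 4 keratins and by VIM in each library, with exact 95% intervals as bars, and the TPM of VIM over the summed TPM of the keratins, with diamonds for canonical transcript lengths. The keratin share is lower under CBC in both lines (0.356% and 0.273%, 0.190% and 0.117%), while the VIM share is within 0.345% to 0.427% in all libraries.

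Of the transcription factors, ZEB1 had 43.1 CPM under PBS and 64.4 under CBC in MIA PaCa-2 (log2 fold change 0.58; 0.46 to 0.69) and from 74.4 to 101 CPM in PANC-1 (0.44; 0.36 to 0.53). Both differences were in the same direction and below 2-fold. SNAI2 had 23 and 29 counts in MIA PaCa-2 under PBS and CBC (log2 fold change 0.17; -0.66 to 1.04). It had 11 and 26 counts in PANC-1, where it stayed under 1 CPM and was not tested. No change of SNAI2 was detectable at this depth. ZEB1-AS1 lies on the opposite strand and shares 396 exon bases with ZEB1, and VIM-AS1 likewise shares 656 with VIM. ZEB1-AS1 had 146 and 213 counts in MIA PaCa-2 and 145 and 217 in PANC-1, and VIM-AS1 had 99 and 88 and then 126 and 156. Whether counting used strand is not given, so reads from these shared bases cannot be assigned with certainty either.

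With CBC tested against PBS over both lines (edgeR's quasi-likelihood test, the cell line as a block), none of the 10 genes passed an adjusted p of 0.05, against 4.71% of the 16381 genes (2.26% higher and 2.45% lower). An unadjusted p under 0.05 was reached by 4 of them (KRT8, KRT19, KRT18 and ZEB1) and by 20.9% of all genes. KRT8 had a log2 fold change of -0.82 (SE 0.20, edgeR adjusted p = 0.0623) and KRT19 one of -0.61 (SE 0.18, edgeR adjusted p = 0.0992). KRT18 had -0.47 (SE 0.17, edgeR adjusted p = 0.171) and ZEB1 0.52 (SE 0.21, edgeR adjusted p = 0.217). DESeq2 with the same terms called KRT8 (adjusted p = 0.0150) and KRT19 (adjusted p = 0.0103), so 2 genes passed there, against 7.91% of all genes. For CDH1 and KRT7, whose CPM differed past 2-fold in 1 line each, the test over both lines gave 1.73 (SE 0.76, edgeR adjusted p = 0.258) and 1.56 (SE 0.97, edgeR adjusted p = 0.400). CDH1 had 0 counts in both MIA PaCa-2 libraries, so its value rests on PANC-1 and does not compare the responses of the lines.

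Genes that work with the members were read from lists. Over all tested genes, 11.5% were higher and 8.97% lower under CBC in MIA PaCa-2, and 7.71% and 7.03% in PANC-1. The list counts under CBC given from here on stand beside these shares. Of 32 epithelial junction and surface genes, 14 were tested in MIA PaCa-2, with 4 higher and 2 lower under CBC and a median log2 fold change of 0.81, where all tested genes had -0.01. In PANC-1 19 were tested, with 2 higher, 2 lower and a median of 0.17, against 0.02 for all tested genes. The tight junction genes CLDN1 and OCLN were past 2-fold in both lines. CLDN1 had 687 and 3776 counts in MIA PaCa-2 under PBS and CBC and 412 and 1374 in PANC-1 (log2 fold changes 2.30 and 1.47), and over both lines it rose by 1.90 (SE 0.28, edgeR adjusted p = 0.0155). OCLN rose by 1.09 over both lines (SE 0.21, edgeR adjusted p = 0.0332). MUC1, a membrane mucin, was lower in MIA PaCa-2 (-1.58).

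Of 16 epithelial transcription and splicing factors, 5 were tested in MIA PaCa-2 and 7 in PANC-1, with 1 higher and 1 lower in each line. The gene that was higher in each was KLF4, which is known to favour epithelial differentiation. It had 597 and 2281 counts in MIA PaCa-2 and 150 and 558 in PANC-1, and rose by 1.71 over both lines (SE 0.24, edgeR adjusted p = 0.0150). Other factors had lower counts under CBC, with ELF3 at 203 and 71 and EHF at 2213 and 1243 in MIA PaCa-2. The log2 fold change of EHF was -0.98 there, within 2-fold. In PANC-1, GRHL3 had 118 and 21 counts. GRHL2 and OVOL1, other epithelial factors, had 0 to 2 counts in every library.

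The mesenchymal list had 26 genes. In MIA PaCa-2 16 were tested, 2 higher and 4 lower under CBC (median -0.60), and in PANC-1 17, 1 higher and 3 lower (median -0.16). Of all tested genes, 11.5% were higher and 8.97% lower in MIA PaCa-2, and 7.71% and 7.03% in PANC-1. S100A4, a calcium-binding protein of motile cells, had 8661 and 2042 counts in MIA PaCa-2 and 2140 and 1155 in PANC-1. It fell by 1.69 over both lines (SE 0.28, edgeR adjusted p = 0.0213). COL1A2, a collagen chain, had 8174 and 2348 counts in MIA PaCa-2 and 0 and 1 in PANC-1, so its call over both lines (edgeR adjusted p = 0.0364) rests on MIA PaCa-2. Its partner chain COL1A1 had 3037 and 1268 counts in PANC-1 and 11 under PBS in MIA PaCa-2.

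**Figure D5:**
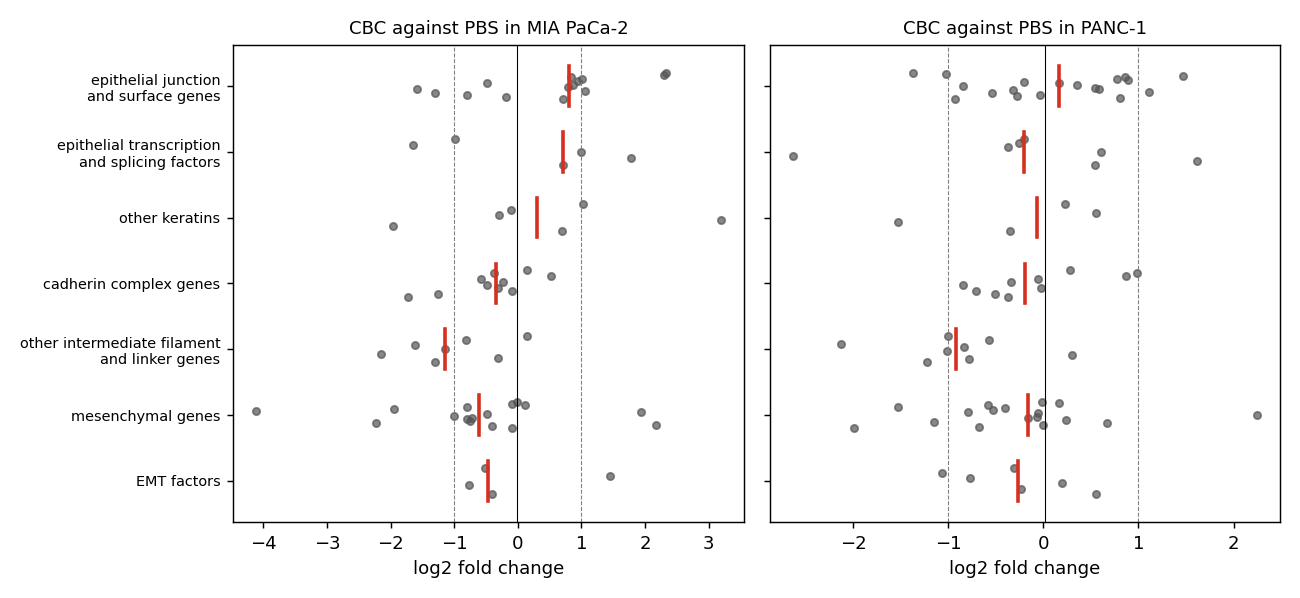
Log2 fold change of CBC against PBS for the tested genes of each list (grey points) in MIA PaCa-2 and PANC-1, with the list's median in red, the median of all tested genes as a thin line and dashed lines at 2-fold. The medians of the intermediate filament and linker genes are -1.14 and -0.91, and those of the epithelial junction and surface genes are 0.81 and 0.17.

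Other filament genes shared the lower values of the keratins KRT8, KRT18 and KRT19 in part. Of 13 other intermediate filament and linker genes, 4 of 7 tested were lower in MIA PaCa-2 and 3 of 8 in PANC-1, and none was higher. The shares of all tested genes that were lower were 8.97% and 7.03%. Their median log2 fold changes were -1.14 and -0.91. Over both lines LMNB1, a lamin of the nuclear envelope, fell by 1.86 (SE 0.22, edgeR adjusted p = 0.00971), nestin (NES) by 1.49 (SE 0.29, edgeR adjusted p = 0.0337) and synemin (SYNM) by 1.26 (SE 0.22, edgeR adjusted p = 0.0254). LMNB2, another lamin, fell by 0.98 (SE 0.18, edgeR adjusted p = 0.0291).

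Among 15 other keratins, 2 were higher and 1 lower of 6 tested in MIA PaCa-2, and 1 was lower of 4 tested in PANC-1. KRT16, a keratin of stressed epithelium, had 29 and 311 counts in MIA PaCa-2 and 0 and 4 in PANC-1 (edgeR over both lines, adjusted p = 0.0310), so that call too rests on MIA PaCa-2. KRT80 fell by 1.75 over both lines (SE 0.23, edgeR adjusted p = 0.0123). KRT10 was higher in MIA PaCa-2 by a log2 fold change of 1.03 and had 0.22 in PANC-1.

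Of 13 genes of the cadherin complex, which links cadherins to actin, 10 were tested in each line. In MIA PaCa-2 2 were lower, vinculin (VCL, -1.73) and NECTIN3 (-1.25), and in PANC-1 none was past 2-fold. The catenin gene CTNNA1 had a log2 fold change of 0.87 in PANC-1. CDH24, another classical cadherin, fell by 1.86 over both lines (SE 0.32, edgeR adjusted p = 0.0227), from 532 to 164 counts in MIA PaCa-2 and from 358 to 116 in PANC-1.

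Of 12 other transcription factors of the transition, 4 were tested in MIA PaCa-2 (1 higher) and 6 in PANC-1 (1 lower), and none passed the test over both lines. SNAI1 (Snail), another repressor of CDH1, had 109 and 334 counts in MIA PaCa-2 (log2 fold change 1.45; 1.15 to 1.79) and 413 and 291 in PANC-1 (-0.77; -0.99 to -0.55). TWIST1 had 0 counts in all 4 libraries, and ZEB2, the paralog of ZEB1, had 0 and 2 counts in MIA PaCa-2 and 70 and 125 in PANC-1. Of 12 genes of TGF-beta signalling, which drives the transition in many epithelia, 1 of 9 tested was lower in MIA PaCa-2 and 2 of 12 in PANC-1, and none was higher. Among all tested genes, 8.97% were lower and 11.5% higher in MIA PaCa-2, and 7.03% and 7.71% in PANC-1.

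The lists of the classical and basal-like subtypes of pancreatic cancer had 20 genes each. Of the classical genes, 1 of 1 tested was lower under CBC in MIA PaCa-2 and 1 of 3 in PANC-1, where AGR2, a chaperone of secretory epithelium, had 1397 and 438 counts. Of the basal-like genes, 1 was higher and 1 lower in each line, of 7 and 5 tested. Over both lines the glucose transporter SLC2A1 rose by 0.98 (SE 0.20, edgeR adjusted p = 0.0388) and TNS4, a focal adhesion protein, fell by 3.80 (SE 0.64, edgeR adjusted p = 0.0222).

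Between the lines under PBS, 12 of 20 tested epithelial junction and surface genes were higher in PANC-1 and 2 were lower (median 2.11, against 0.10 over all tested genes). CLDN7, a claudin often found with EPCAM, had 0 counts in MIA PaCa-2 and 529 in PANC-1, at least 172-fold more. The desmosomal cadherin DSC2 had 8 and 2100 counts. Among the epithelial factors, 6 of 9 were higher and 3 lower in PANC-1, where 24% of all tested genes were higher and 18% lower. FOXA2 had 0 counts in MIA PaCa-2 and 1235 in PANC-1, while EHF had 2213 counts in MIA PaCa-2 and 1 in PANC-1. Of the tested genes, 3 junction and surface genes and 4 factors had 0 counts in 1 line. These genes and EHF passed the filter through the other line only. Passing it already put them past 2-fold, so their calls add no support.

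The mesenchymal list split between the lines, with 7 genes higher and 9 lower in PANC-1 of 20 tested (median -0.08). COL1A2 had 8174 counts in MIA PaCa-2 and 0 in PANC-1, whereas MMP2, a matrix metalloproteinase, had 0 and 1469. Of 12 TGF-beta signalling genes, 6 were higher and 1 lower in PANC-1, and the receptor TGFBR2 had 0 counts in MIA PaCa-2 and 2464 in PANC-1. Of the basal-like genes 6 of 8 tested were lower in PANC-1 and 1 was higher, and UCA1, a noncoding RNA, had 7556 and 0 counts. In these lists 5 tested mesenchymal genes, 1 TGF-beta gene and 2 basal-like genes had 0 counts in 1 line. Among all 14805 tested genes 848 did. Their calls were fixed by the filter and add no support.

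Under CBC the lines differed past 2-fold in 6 of the 10 genes (CDH1, CDH2, EPCAM and KRT19 higher in PANC-1, KRT8 and KRT18 lower), against 45.5% of 15043 genes tested (25.7% higher and 19.9% lower). CDH1, CDH2 and EPCAM again passed the filter through PANC-1 only. With 0 or 1 counts in MIA PaCa-2, passing the filter already put them past 2-fold. SNAI2 passed through MIA PaCa-2 only (1.17 CPM, against 0.951 CPM in PANC-1) and was within 2-fold. This comparison shares its lines with that under PBS but no library. KRT8 had a log2 fold change of -2.18 (-2.22 to -2.14), against -1.57 under PBS, and KRT7 was no longer past 2-fold.

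The genes with the most similar profiles over the 4 libraries were found by the Euclidean distance of centred log2 CPM among 10067 candidate genes (10068 for CDH1) with a mean of at least 10 CPM. For VIM these were PCGF6 (distance 0.0142), EFCAB14 and NCKIPSD, and for ZEB1 SVIL-AS1 (0.0546), PIK3CA and ZNF264. For CDH1 the nearest were DYRK1B (0.817), WSCD1 and STXBP2, and none of them was close. DYRK1B had 191 and 182 counts in MIA PaCa-2 under PBS and CBC and 2402 and 6617 in PANC-1.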

How the data were processed

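Messenger RNA was selected by poly(A), made into libraries with a directional kit and sequenced as paired reads of 100 bases. Trimming with cutadapt 2.7 and alignment to GRCh38 with STAR (version not given in the sources used here) were done by the authors, who counted reads per gene of Ensembl release 89 with HTSeq. The main deposited table gives raw counts. A further signal deposited by the authors is CPM, with library sizes scaled by TMM in edgeR. It matched the same quantity recomputed from the counts within a relative difference of 6.84e-09, so the counts were used.

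Of 58233 gene identifiers, 57392 had a symbol, an exon length and a position in GENCODE release 44 on GRCh38, a later annotation than the one counted. TPM used the merged exons of a gene, or the canonical transcript where named. Log2 fold changes were computed with edgeR 4.0.16 (R 4.3.3), TMM factors over all 4 libraries and a prior count of 2, for genes at 1 CPM or more in at least 1 of the libraries compared. Counting intervals are exact 95% binomial intervals (Clopper-Pearson). Intervals and the limit of 3 counts cover counting error only, and no molecular identifiers are named. A fold against a group at 0 counts was computed against this limit per library and is a lower bound.

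With 1 library per group, a line alone gives no test. The tests over both lines used edgeR's quasi-likelihood fit with line and treatment as terms on 16381 genes kept by filterByExpr. The pairing comes from the cell line, since the labels give no replicate numbers. The fit draws each gene's spread towards that of all genes, since each gene has 1 residual degree of freedom. Whether the cultures were independent is not given, so p-values measure only the spread between these libraries, pooled in this way. The fit was first checked on simulated counts with known changes. DESeq2 1.42.0 was an alternative tool.

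The members and gene lists were chosen with earlier results of these data known. Some list genes are not reported here. Of the others, the text names all members, from each list up to 3 genes whose change was largest at a mean of 10 CPM or more, list genes called over both lines, neighbouring antisense genes and pseudogenes, and the 3 nearest profiles of CDH1, VIM and ZEB1. List genes called over both lines, and CD3E, PTPRC, DCN, LUM, ITGAM, ELF3, GRHL2, GRHL3, OVOL1, TWIST1, ZEB2 and EPCAM-DT, were named after their values were seen. Alternatives changed the filter, prior count, scaling, values, gene type, gene length, pseudogenes, tool and block. The choices of canonical transcript lengths and pseudogene counts in the fold changes of KRT8 and KRT18 were added after seeing the data.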

Additional observations from a re-analysis of the deposited data

Results flagged for a closer look

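Some genes of the lists moved in opposite directions with CBC in the lines, with counting intervals that exclude 0 in both; none of the 10 state genes did. With 1 library per group, the difference between the lines was not tested for any of them. The log2 fold change of SNAI1 was 1.45 in MIA PaCa-2 and -0.77 in the other line, a difference of 2.21. ARVCF, a catenin-like partner of cadherins, had -0.38 and 0.98, a difference of -1.36. SOX9, a ductal transcription factor, had -0.77 and 0.20 (difference -0.97), and KRT15 had -0.29 and 0.56 (difference -0.85). TGFB1 had 0.55 and -0.12 (difference 0.67) and SMAD2, a transducer of TGF-beta signals, had -0.19 and 0.30 (difference -0.49).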

How the results depend on the processing

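Within a line the number of state genes past 2-fold stayed at 1 in MIA PaCa-2 and 2 in PANC-1, with 1 exception among the alternatives. Beside these numbers, the shares of all genes past 2-fold were 12.3% to 23.1% in MIA PaCa-2 and 8.42% to 19.2% in PANC-1. The exception was a stricter filter, 1 CPM or more in each library compared, which left out KRT7 in MIA PaCa-2. There 0 of 6 state genes were past 2-fold, against 15.7% of 12708 genes. Between the lines under PBS that filter left 3 of 5 (30.1% of all genes), and all other alternatives gave 7 or 8. Scaling moved the split of all genes between the lines: with TMM, 3548 genes were more than 2-fold higher in PANC-1 and 2659 lower, 3227 and 3016 with library totals and 2954 and 3396 with upper quartile scaling, where the median log2 fold change was -0.15 in place of 0.10. In the test of CBC over both lines DESeq2 called 2 state genes (7.91% of all genes) and every edgeR alternative called 0. In the test between the lines, 4 of 5 were called with at least 1 CPM in all 4 libraries (43.5% of all genes), and 6 or 7 of 10 under the other alternatives (39.5% to 48% of all genes, and 26% without the block). Without the block (no replicate block), CBC called 0 of all genes in place of 771 and 0 state genes. Between the lines 6 state genes were called without the block, and ZEB1 had an adjusted p of 0.196. The log2 fold change of ZEB1 between the lines was 0.59 with library totals, 0.55 with upper quartile scaling, 0.64 without the block and 0.60 with protein-coding genes alone.

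In the order MIA PaCa-2 PBS and CBC and PANC-1 PBS and CBC, the counts of KRT8 per KRT18 count were 0.560, 0.489, 0.396 and 0.277 per kilobase of exon and 0.994, 0.869, 0.703 and 0.492 per kilobase of the canonical transcript. With pseudogene counts added they were 1.12 in MIA PaCa-2 CBC, 0.909 in PANC-1 PBS and 0.674 in PANC-1 CBC. The keratin share of all counts was 0.377%, 0.284%, 0.199% and 0.120% without mitochondrially encoded genes and 0.358%, 0.277%, 0.191% and 0.120% with pseudogenes. The order of the libraries was the same under each of these for the ratio and the share. The share of CDH1 in PANC-1 CBC was 26.7% per kilobase of exon. No called value changed direction under the alternatives run. Leaving out a library leaves no residual degree of freedom for the tests and no group to compare within a line, so it was not run. Low counts limit CDH1, CDH2 and EPCAM in MIA PaCa-2, CDH1 in PANC-1 under PBS (32 counts), and KRT7 and SNAI2 in all libraries.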
